A study of Mus musculus with 12 samples.

Results

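Ucp1, Ucp2 and Ucp3, the 3 genes of the classical uncoupling proteins, were followed through the H3K9me2 and H3K9me3 ChIP-seq peaks of brown adipose tissue (BAT) and subcutaneous white adipose tissue (WAT). The members were chosen by name out of 22380 protein-coding genes, and peaks were assigned to a gene if they overlapped its promoter, taken as 3 kb on either side of each annotated transcription start site, or its gene body with 10 kb on either side. For Ucp1 the 15 kb upstream of the start were taken as well. By this rule the 3 genes held 15 of the 266606 peaks listed. The tissues came from wild-type C57BL/6J mice fed a high-fat diet (HFD) or a standard chow diet (SCD) from the age of 6 weeks for 12 weeks. There was 1 immunoprecipitated library for each diet, tissue and mark, which gave 8 lists of peaks. Neither the sex of the mice nor the number of mice behind a library was found in the sources used here. The chromatin was fixed with 1% formaldehyde for 8 min and came from whole tissue, so the cells that carried a mark cannot be told, and the lists give no expression by which the tissues could be checked. Because each group was a single library, the diets could not be tested, and every difference below is a description of the libraries. Where a list lacks a peak, none was detectable in that library, whose depth the lists do not give.

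Each list gives the position of a peak and a score without a stated unit, taken to be 10 times -log10 of a p-value, so that a higher score is a smaller p-value. The lists end at a score of 50 or 50.01, except the 2 SCD lists of WAT, which go down to 30. The score is not scaled between libraries, so each value is also given as its percentile among the genes of the same list. The marks are named as in the library labels. In the methods of the study the H3K9me2 antibody is described as recognizing trimethylated K9 and the H3K9me3 antibody as recognizing dimethylated K9. Which description holds could not be settled from the lists, and the names of the marks may be exchanged throughout.

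Uncoupling proteins are carriers of the inner mitochondrial membrane. Ucp1 lets protons flow back into the matrix without ATP synthesis, which turns the energy of fuel oxidation into heat, and it is the defining gene of brown and beige adipocytes. Ucp2 is transcribed in many tissues and in immune cells, Ucp3 mainly in skeletal muscle and brown fat, and for both a role in heat production is less clear than for Ucp1. Methylation of H3K9 is commonly found on repressed chromatin, and its removal at the Ucp1 locus by demethylases has been linked to brown fat gene activity. All coordinates are those of the mm9 genome with the GENCODE vM1 annotation. Ucp1 lies at chr8:85814247-85822355 on the plus strand and has 1 annotated start. Ucp3 lies at chr7:107621499-107634941 and Ucp2 at chr7:107641846-107650529, both on the plus strand, with 6904 bp between the end of Ucp3 and the first start of Ucp2. The 4 starts of Ucp3 fall within 4 bp, whereas the 10 starts of Ucp2 spread over 5009 bp, so that its promoter window reaches far into the gene.

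The 250 bases before the start of the main coding transcript of each gene are shown because peaks covered them at Ucp1 and Ucp2 and not at Ucp3. Capitals mark CpG dinucleotides, and the sequences run 5′ to 3′ on the plus strand, at chr8:85813997-85814246, chr7:107641596-107641845 and chr7:107621250-107621499.
Ucp1: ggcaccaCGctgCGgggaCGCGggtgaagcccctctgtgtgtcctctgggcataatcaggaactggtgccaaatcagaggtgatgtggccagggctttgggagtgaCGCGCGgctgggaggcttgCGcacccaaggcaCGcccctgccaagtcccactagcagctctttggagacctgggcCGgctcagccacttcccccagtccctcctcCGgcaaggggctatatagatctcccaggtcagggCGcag
Ucp2: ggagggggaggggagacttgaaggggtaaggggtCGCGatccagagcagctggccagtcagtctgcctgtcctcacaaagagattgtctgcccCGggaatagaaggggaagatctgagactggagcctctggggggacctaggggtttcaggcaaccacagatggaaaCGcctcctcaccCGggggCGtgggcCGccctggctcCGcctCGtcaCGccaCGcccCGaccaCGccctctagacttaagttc
Ucp3: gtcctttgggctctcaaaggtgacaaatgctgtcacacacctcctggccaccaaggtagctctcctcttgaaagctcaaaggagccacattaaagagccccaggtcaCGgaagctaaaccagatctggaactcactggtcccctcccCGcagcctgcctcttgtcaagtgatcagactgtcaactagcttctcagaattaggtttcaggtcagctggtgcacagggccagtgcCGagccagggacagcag
These windows held 12 CpG in Ucp1 and 13 in Ucp2 but 3 in Ucp3, with a GC content of 64.8%, 63.6% and 54.8%. The whole Ucp1 window lay inside all 5 peaks of that gene at its start, the whole Ucp2 window lay inside all 4 peaks at its first start, and the Ucp3 window was covered in no list. Of the motifs searched on both strands, TGACG, the core of the cAMP response element, was found once in Ucp1 and once in Ucp2 and in 19.4% of all 22380 promoter windows of this length. GGGCGG, the GC box, was found once in Ucp2 and in 40.1% of the windows. TATAAA (12.3% of the windows), CCAAT (35.0%), TGACGTCA (1.93%, and overlapping TGACG) and CACGTG (6.53%) had no match in any of the 3 windows.

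Of the 3 genes, 2 had a promoter peak in HFD BAT H3K9me2 (Ucp1 and Ucp2, against 45.6% of all protein-coding genes), 1 in SCD BAT H3K9me2 (Ucp1, against 43.3%), 2 in HFD BAT H3K9me3 (Ucp1 and Ucp2, 58.9%) and 1 in SCD BAT H3K9me3 (Ucp2, 52.3%). In WAT, 0 of the 3 had a promoter peak in HFD H3K9me2 (39.3% of all genes), 2 in SCD H3K9me2 (Ucp1 and Ucp2, 54.7%), 2 in HFD H3K9me3 (Ucp1 and Ucp2, 35.9%) and 0 in SCD H3K9me3 (18.9%). Thus Ucp1 and Ucp2 had a promoter peak in 5 of 8 lists each, and 44.3% of all genes had one in at least 5 lists. Ucp3 had none in any list, as had 29.9% of all genes. With the limit of 50 applied to all lists, no promoter peak of the 3 genes was left in SCD WAT H3K9me2 (42.3% of all genes) or SCD WAT H3K9me3 (6.96%). The lists HFD WAT H3K9me2 and SCD WAT H3K9me3 held no peak in any window of the 3 genes, although the SCD list goes down to a score of 30.

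Over the gene bodies the counts were wider, because Ucp3 entered them. A peak in the gene body was found in 3 of the 3 genes in HFD BAT H3K9me2 (53.2% of all genes), 1 in SCD BAT H3K9me2 (47.4%), 3 in HFD BAT H3K9me3 (62.3%) and 1 in SCD BAT H3K9me3 (54.4%). In WAT it was found in 0 in HFD H3K9me2 (41.4%), 3 in SCD H3K9me2 (57.9%), 2 in HFD H3K9me3 (42.0%) and 0 in SCD H3K9me3 (28.3%). With the flanks of 10 kb, the peak over the first Ucp2 start also falls in the window of Ucp3. The genes with a peak were then 3 in HFD BAT H3K9me2 (66.0% of all genes), 1 in SCD BAT H3K9me2 (59.7%), 3 in HFD BAT H3K9me3 (74.5%), 2 in SCD BAT H3K9me3 (66.1%), 0 in HFD WAT H3K9me2 (53.3%), 3 in SCD WAT H3K9me2 (70.2%), 3 in HFD WAT H3K9me3 (56.1%) and 0 in SCD WAT H3K9me3 (41.3%).

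At Ucp1, every peak in the gene and its flanks was a single peak over the start site. Its score was 54.62 in HFD and 57.75 in SCD BAT for H3K9me2, and 129.42 in HFD BAT for H3K9me3, where the SCD list had no Ucp1 peak. In WAT the H3K9me2 peak was listed in SCD only, with a score of 45.2, and the H3K9me3 peak in HFD only, with a score of 59.55. The Ucp1 start thus had a peak in both diets in BAT H3K9me2, in HFD only in BAT and WAT H3K9me3, and in SCD only in WAT H3K9me2. The peak of SCD WAT lies under 50, the lowest score of the HFD list it is set against, and is not a difference at a common threshold. An HFD-only promoter peak was found in 8.83% of all genes for BAT H3K9me3 and in 23.9% for WAT H3K9me3, and a peak in SCD only in 18.0% for WAT H3K9me2. The BAT H3K9me3 peak remained HFD only when as many peaks were taken from both lists (26835 each), while in BAT H3K9me2 that setting (24887 each) left the SCD peak only.

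**Figure D1:**
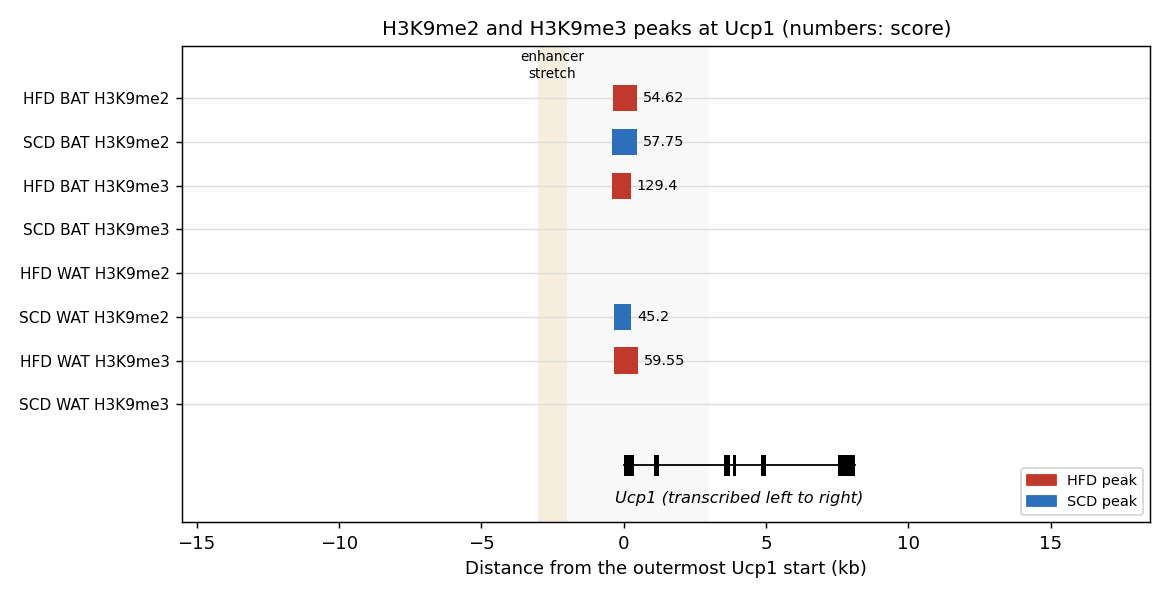
Peaks of each list (rows) by distance from the Ucp1 start (kb), with the score beside each peak, 1 library per row, HFD in red and SCD in blue. The grey band is the promoter (3 kb on either side), the yellow band is the stretch 2 to 3 kb upstream, and the black boxes are exons. All 5 peaks cover the start, and the yellow band is empty in all 8 rows.

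The 5 Ucp1 peaks were nearly superimposed. They were 827 bp wide in HFD and 873 bp in SCD BAT H3K9me2, 648 bp in HFD BAT H3K9me3, 621 bp in SCD WAT H3K9me2 and 858 bp in HFD WAT H3K9me3. They shared a core of 600 bp at chr8:85813901-85814500, which runs from -346 to 253 bp relative to the start and ends within exon 1, the first coding exon. The midpoints lay between -70.5 and 79.5 bp. Of the HFD peak of BAT H3K9me2, 100% was covered by the SCD peak, and of the SCD peak 94.7% by the HFD peak, with a ratio of scores of 0.946 (HFD over SCD). Over the 7119 genes with a promoter peak in both of these lists the median ratio was 0.869, and in 17.2% of them the HFD score was at least 2 times lower, in 8.20% at least 2 times higher.

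The SCD list of BAT H3K9me3, which lacked a Ucp1 peak, held promoter peaks of the next genes on either side. Elmod2, the next gene downstream, had a promoter peak there with a score of 349.4, and 192.09 in the HFD list. Tbc1d9, the next gene upstream, had 591.6 in HFD and 661.72 in SCD BAT H3K9me3. The nearest peak to the Ucp1 start in the SCD list was that of Elmod2, 41.4 kb away, and the nearest upstream was 123.9 kb away. Both neighbours had the lower score in the HFD list of BAT H3K9me3. Over the 11215 genes with a promoter peak in both of these lists, the median ratio of scores, HFD over SCD, was 1.28. In 3.99% of them the HFD score was at least 2 times lower. The neighbours were named after their values were seen, so no contrast with Ucp1 is drawn from them.

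The Ucp1 enhancer, which binds nuclear receptors and factors of the cAMP pathway and drives transcription in brown fat, lies 2 to 3 kb upstream of the start in the mouse. No list held a peak in this stretch, and none held a further peak in the 15 kb upstream of the start. Peaks at this distance were uncommon, since 8.51% of all genes had one in any list, so that the empty stretch does not set Ucp1 apart. The middle 300 bases of this stretch, at chr8:85811597-85811896, are shown for comparison with the marked promoter. Capitals are the matches to TGACG, here both on the opposite strand and so read as CGTCA.
Ucp1 enhancer stretch: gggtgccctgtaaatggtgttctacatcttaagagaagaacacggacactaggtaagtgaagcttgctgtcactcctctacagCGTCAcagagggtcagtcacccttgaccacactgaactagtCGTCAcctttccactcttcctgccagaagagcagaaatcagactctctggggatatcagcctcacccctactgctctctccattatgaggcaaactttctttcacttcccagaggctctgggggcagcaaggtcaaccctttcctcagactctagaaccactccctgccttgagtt
This stretch held 2 such matches, and a match was found in 7.90% of the stretches of 300 bases at the same distance from 22379 genes. The other motifs searched in it had no match. Among them was a repeat of the nuclear receptor type, found in 0.0983% of those stretches. The Ucp1 stretch held 3 CpG with a GC content of 51.0%, against 12 CpG in the shorter window before the start.

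At Ucp2, most peaks lay over the first start. In BAT H3K9me3 the score there was 152.32 in HFD and 50.28 in SCD, and the HFD peak had 97.8% of its length under the SCD peak. In WAT it was 80.69 in HFD H3K9me3 and 33.14 in SCD H3K9me2, and no peak was listed in SCD H3K9me3 or HFD H3K9me2. These 4 peaks shared a core of 854 bp at chr7:107641232-107642085, from -614 to 239 bp relative to the start, which includes the noncoding exon 1. The ratio of the BAT H3K9me3 scores, HFD over SCD, was 3.03, against a median of 1.28 over the 11215 genes with a promoter peak in both lists, of which 19.8% had an HFD score at least 2 times higher and 3.99% one at least 2 times lower. The SCD peak of 50.28 was close to the end of its list, where the lowest score was 50.01. It is the member's value just inside that limit, and Ucp2 would be counted as HFD only in this comparison at a score of at least 80.

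Inside Ucp2, peaks of H3K9me2 were found at other positions. In HFD BAT a peak of 1260 bp with a score of 66.24 lay at chr7:107645091-107646350, over exons 3 and 4, the first coding exons of the gene. It started 3245 bp after the first start and counts as a promoter peak only through the starts inside the gene. A peak of 349 bp with a score of 36.54 was listed in SCD WAT at chr7:107647207-107647555, over exon 7. The first start itself carried no H3K9me2 peak in BAT under either diet. The fourth peak of HFD BAT H3K9me2 in the windows had a score of 61.56 and lay at chr7:107652369-107653044, downstream of Ucp2 in the body of Dnajb13, a gene read toward Ucp2 from the opposite strand.

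Ucp3 had no peak within 3 kb of its starts in any list, and its peaks lay in the middle of the gene. In BAT a peak was listed in HFD only for both marks, with a score of 120.52 for H3K9me2 and of 154.67 for H3K9me3. In WAT it was listed for H3K9me2 in SCD only, with a score of 74.06, and for H3K9me3 in neither diet. The widths were 1557 bp, 765 bp and 681 bp, and the 3 peaks shared 648 bp at chr7:107628384-107629031, from 6884 to 7531 bp after the start. This core covers exon 3 and the beginning of exon 4, the second and the third coding exon, with intron between them. A gene body peak in HFD only was found in 14.8% of all genes for BAT H3K9me2 and in 10.0% for BAT H3K9me3, and one in SCD only in 19.0% for WAT H3K9me2. For comparison, a gene body peak of BAT H3K9me2 was in SCD only in 8.99% of all genes and in both diets, as at Ucp1, in 38.4%. Of the 6686 genes without a promoter peak in any list, 755 had a gene body peak in at least 3 lists, as Ucp3, and 1450 in at least 1. These were 3.37% and 6.48% of all genes, and the limit of 3 is the count of Ucp3 itself. The SCD peak of WAT stayed above the common lowest score of 50, so this difference did not rest on the lower threshold of that list. The middle 300 bases of the core, at chr7:107628558-107628857, hold all of exon 3 and are printed with CpG in capitals for comparison with the window before the start.
Ucp3 exon 3 region: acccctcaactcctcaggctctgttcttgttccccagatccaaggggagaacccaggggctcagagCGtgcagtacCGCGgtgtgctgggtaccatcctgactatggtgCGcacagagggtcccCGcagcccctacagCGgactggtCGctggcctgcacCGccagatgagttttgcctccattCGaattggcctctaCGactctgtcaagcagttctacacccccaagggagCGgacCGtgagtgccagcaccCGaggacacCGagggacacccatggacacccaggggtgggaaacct
These bases held 14 CpG at a GC content of 62.0%, against 3 CpG in the 250 bases before the start. The Ucp2 peak over its first coding exons covers the corresponding part of that gene, with 13 CpG in its exon 4, the second coding exon. The second coding exon of Ucp1, with 4 CpG, had no peak in any list.

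**Figure D2:**
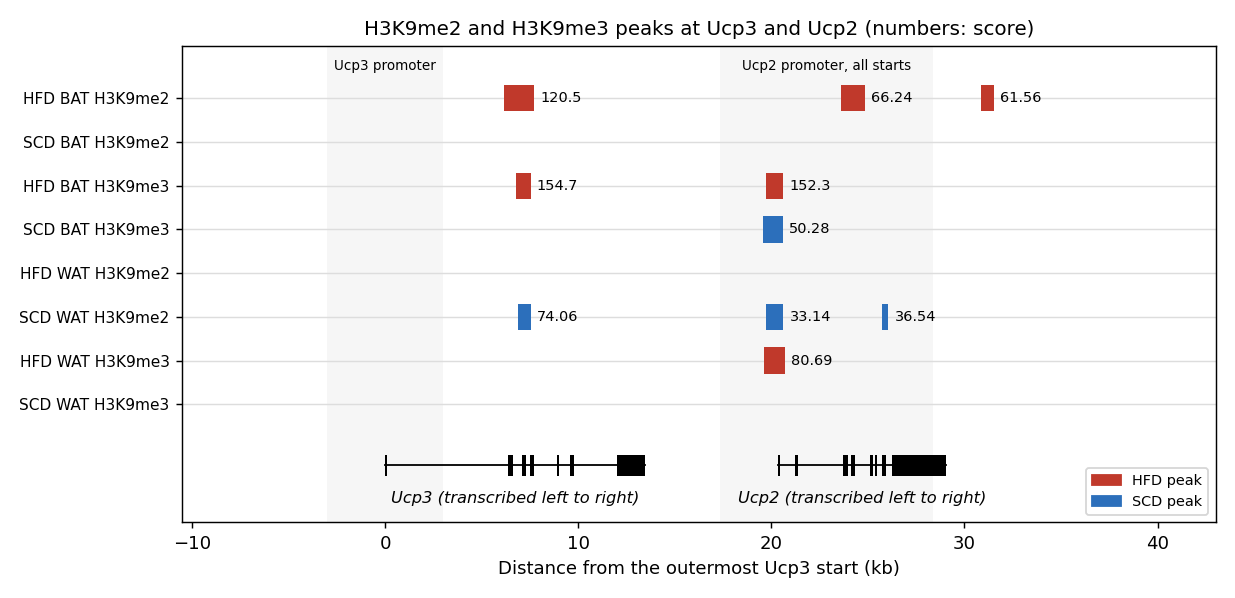
Peaks of each list (rows) by distance from the Ucp3 start (kb), with the score beside each peak, 1 library per row, HFD in red and SCD in blue. Grey bands are the promoter windows, and black boxes are exons of the main coding transcripts. The 3 Ucp3 peaks lie to the right of its promoter band, and 4 of the peaks of Ucp2 stand over its first start.

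Among all genes with a promoter peak, Ucp1 and Ucp2 had promoter scores below the median of each list. Ucp1 stood at the percentile 7.88 of 10198 genes in HFD and 9.37 of 9683 genes in SCD BAT H3K9me2, at 23.4 of 13192 genes in HFD BAT H3K9me3, at 17.7 of 12239 genes in SCD WAT H3K9me2 and at 17.8 of 8033 genes in HFD WAT H3K9me3. Ucp2 stood at 25.1 in HFD BAT H3K9me2, at 29.2 in HFD and 0.150 in SCD BAT H3K9me3, at 8.80 in SCD WAT H3K9me2 and at 47.3 in HFD WAT H3K9me3. All 10 values thus lay below the median gene of their list. The Ucp2 values of H3K9me2 belong to peaks inside the gene (66.24 in HFD BAT and 36.54 in SCD WAT), counted through its inner starts. At the first Ucp2 start, HFD BAT H3K9me2 had no peak and SCD WAT H3K9me2 had one of 33.14. By percentile, the order for Ucp1 was HFD BAT H3K9me3, then HFD WAT H3K9me3 and SCD WAT H3K9me2, which were nearly equal, then SCD and HFD BAT H3K9me2. The Ucp3 peaks were not at a promoter and are set against all peaks of their list, where they stood at the percentile 80.1 in HFD BAT H3K9me2, 66.4 in HFD BAT H3K9me3 and 65.0 in SCD WAT H3K9me2. On the same scale over all peaks, the Ucp1 peak stood at 12.5, 60.0 and 39.2 in these lists, so the Ucp3 peak ranked above that of Ucp1 in each of them.

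**Figure D3:**
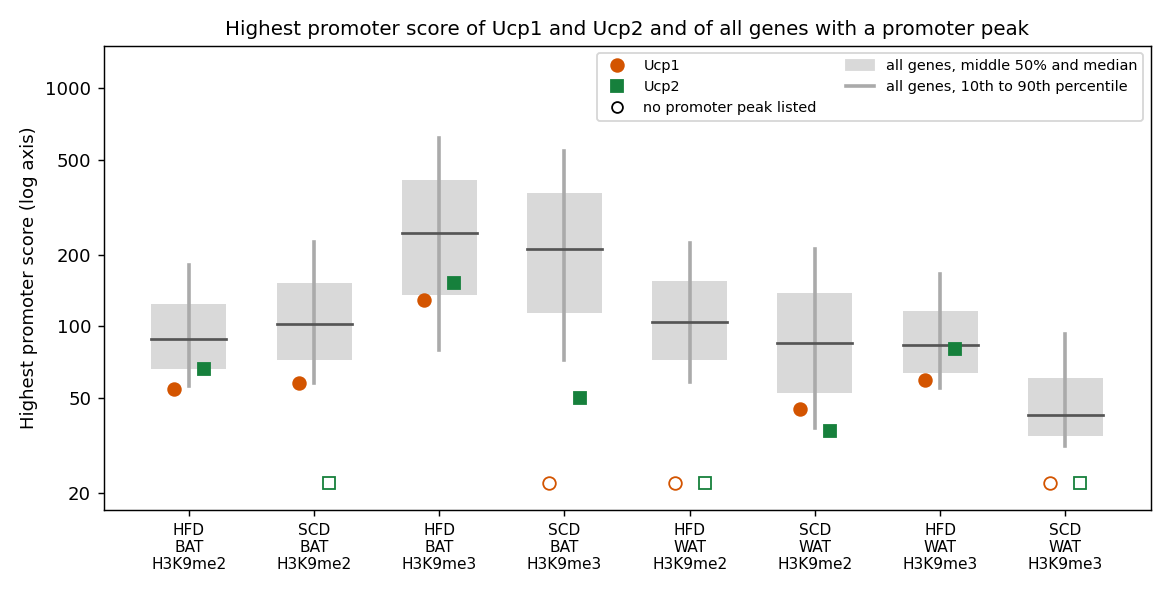
Highest promoter score (log axis) of Ucp1 (circles) and Ucp2 (squares) in each list, 1 library per column, with the middle 50% and the median (box and line) and the 10th to 90th percentile (vertical line) of all genes with a promoter peak. Open symbols at the bottom mark lists without a promoter peak. The filled Ucp2 squares of H3K9me2 stand for peaks inside the gene, not at its first start. Every filled symbol lies below the median line, and the Ucp2 square of SCD BAT H3K9me3 (50.28) lies below that line.

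Promoter peaks of both marks were less frequent at the starts poorest in CpG, least clearly so in SCD WAT H3K9me3, and the 3 genes differ in this feature. In the 1001 bases around the outermost start, the ratio of observed to expected CpG was 0.442 in Ucp1, 0.574 in Ucp2 and 0.198 in Ucp3, which are the percentiles 42.6, 51.7 and 21.5 of all genes. Of the 12086 genes with a ratio below 0.6, to which all 3 belong, 51.2% had no promoter peak in any list, against 4.83% of the 10294 genes with a higher ratio. In BAT H3K9me3, 32.1% of the genes below 0.6 had a promoter peak in HFD and 24.2% in SCD, and 10.1% had it in HFD only, against 8.83% of all genes. These shares pool starts of very different CpG content. In the step of Ucp1 (0.4 to 0.5), 53.1% of genes had a promoter peak in HFD and 42.7% in SCD. The shares were 69.2% and 58.4% in the step of Ucp2 (0.5 to 0.6). In the step of Ucp3 (0.1 to 0.2) they were 16.14% and 11.03%. Ucp2, with the highest ratio of the 3, and Ucp1 had promoter peaks, and Ucp3, with the lowest, had none. With 3 genes this order is a description.

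**Figure D4:**
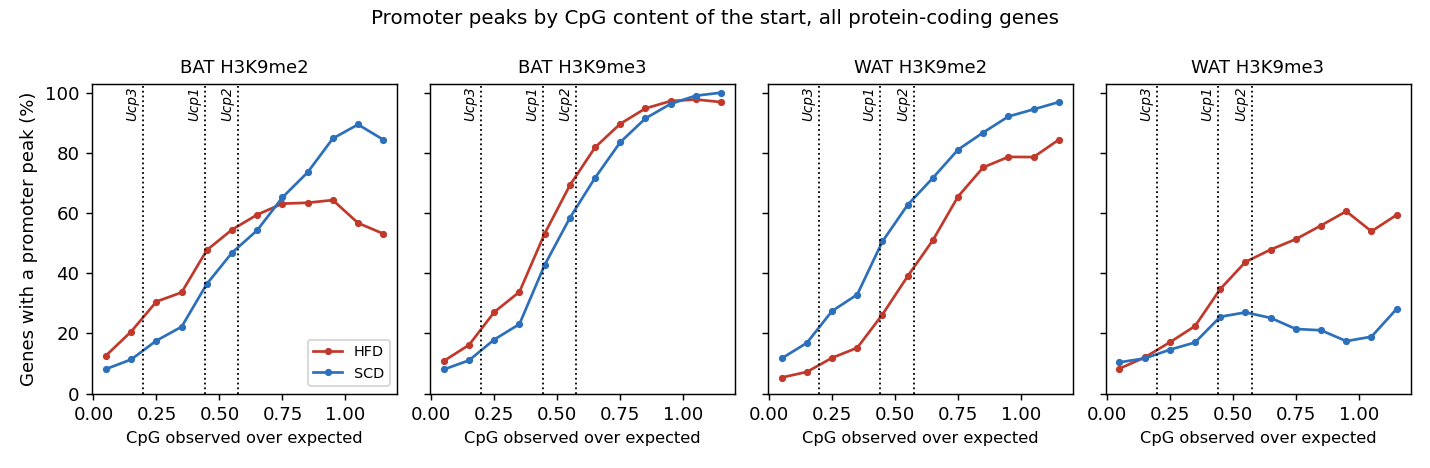
Share of protein-coding genes with a promoter peak (%) by the ratio of observed to expected CpG around the start, in steps of 0.1, for HFD (red) and SCD (blue), 1 library per line. Dotted lines mark Ucp3 (0.198), Ucp1 (0.442) and Ucp2 (0.574). In BAT H3K9me3 both lines climb steeply across the range that the 3 genes span.

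The tissues are set side by side by mark. For H3K9me3, Ucp1 was HFD only in BAT and in WAT, with 129.42 and 59.55. Ucp2 had an H3K9me3 peak at its first start in HFD in both tissues (152.32 in BAT and 80.69 in WAT) and in SCD in BAT alone (50.28), and the gene body of Ucp3 had one in HFD BAT alone (154.67). The HFD H3K9me3 peaks of BAT and WAT overlapped by 603 bp at Ucp1 and by 873 bp at Ucp2. For H3K9me2, all WAT peaks of the 3 genes, 4 in number, were in the SCD list, and in BAT the HFD list held 4 peaks and the SCD list 1. With the limit of 50 in all lists, the SCD list of WAT kept 1 of its 4 peaks, that of Ucp3. The lists held 43173 peaks in HFD and 24887 in SCD for BAT H3K9me2, 52758 in HFD and 26835 in SCD for BAT H3K9me3. For WAT H3K9me2 they held 21976 in HFD and 40013 in SCD, for WAT H3K9me3 29190 in HFD and 27774 in SCD. In the first 3 pairs the diet with more peaks at the uncoupling protein genes was thus also the diet with more peaks in all. With equal numbers of peaks taken from both diets, the peaks at these genes were 1 in HFD and 1 in SCD for BAT H3K9me2, 3 in HFD and 1 in SCD for BAT H3K9me3, and 0 in HFD and 1 in SCD for WAT H3K9me2. In WAT H3K9me3 the HFD list had 2 peaks at these genes and the SCD list 0 with totals close to each other, although at a score of at least 50 the SCD list kept only 8350.

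The regulators of thermogenesis were taken as a list of 26 genes, and 14 relatives of the uncoupling proteins among the mitochondrial carriers as another. In BAT H3K9me3, 6 of the 26 thermogenic genes shared with Ucp1 a promoter peak in HFD only, against 8.83% of all genes. They were Atf2, a target of stress kinases that activates Ucp1 transcription (256.04), Cidea, a lipid droplet protein of brown fat (131.89), Ebf2, a factor of brown fat identity (59.52), Elovl3, a fatty acid elongase (58.79), Irf4, a factor induced by fasting and cold (53.82), and Cox8b, a subunit of cytochrome oxidase (50.07). In SCD only there was 1, Gyk, the glycerol kinase gene (89.28, against 2.16% of all genes), and 17 had it in both diets, against 50.1% of all genes. The HFD list is the longer one, and with equal numbers of peaks (26835 each) its lowest score kept was 101.41. Of the 6 genes in HFD only, Atf2 and Cidea alone scored above it. The share of all genes at that setting is not given here. In WAT H3K9me3, 9 of the 26 had it in HFD only, against 23.9% of all genes (13 of the 26 and 30.6% with the limit of 50), among them Pank1, which makes coenzyme A (232.1), Ppara, a regulator of fatty acid oxidation (147.61), Slc27a1, a fatty acid transporter (95.68), Zfp516, a cold-induced activator of Ucp1 (95.67), and Adrb1, an adrenergic receptor (83.79), and 0 had it in SCD only, against 6.89% of all genes. In WAT H3K9me2, 7 of the 26 were in SCD only, against 18.0% of all genes, with Pparg, the main regulator of adipocytes (120.2), Cebpb (100.95), Ebf2 (87.69), Slc27a1 (64.02) and Cpt1b, which admits fatty acids to mitochondria (45.2), and at a score of at least 50 this count was 4, against 10.2% of all genes. In BAT H3K9me2, where Ucp1 had a peak in both diets, 10 of the 26 did so too, against 31.8% of all genes, while 5 had it in HFD only (13.8%) and 3 in SCD only (11.5%).

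Of the related carriers, 0 of 14 had a promoter peak in HFD only in BAT H3K9me3, against 8.83% of all genes, and 10 had it in both diets, against 50.1%. In SCD only there was 1, Slc25a20, the carrier of acylcarnitines (57.86), against 2.16% of all genes. In WAT H3K9me3, Slc25a1, the citrate carrier (151.86), and Slc25a3, the phosphate carrier (96.22), were the 2 of 14 in HFD only, against 23.9% of all genes. In WAT H3K9me2, Slc25a11, the oxoglutarate carrier (43.93), and Slc25a10, the dicarboxylate carrier (42.13), were the 2 of 14 in SCD only, against 18.0% of all genes, and both were under a score of 50. Slc25a20 (52.41) and Slc25a27, also named Ucp4 (66.48), were the 2 in HFD only, against 2.63% of all genes. With the limit of 50 in both lists, Slc25a42 and Slc25a1 joined them, which made 4 of 14 in HFD only, against 7.16% of all genes.

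At a score of at least 50, 48 other genes of the 22380 protein-coding genes had promoter peaks in the same 4 of 8 lists as Ucp1. Those with the most similar percentiles over these 4 lists were Sh3tc1 (a mean difference of 8.16 percentile points), Tha1 (11.5), Pnpla2, which starts the breakdown of stored triglyceride (12.1), and Fitm1 and Psme1 (12.3 each). Whether the same peaks gave the equal values of Fitm1 and Psme1 was not examined. The pattern of Ucp2 was shared by 88 other genes, of which Dcaf15 (4.93), Med10 (8.12), Cyr61 (9.65), A330049M08Rik (9.83) and Agmat (10.4) were nearest. The empty pattern of Ucp3 was shared by 7122 genes, so none is named.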

How the data were processed

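The series held 12 ChIP-seq libraries from HFD-fed and SCD-fed mice, of which the 8 immunoprecipitated ones have a list of peaks each. The 4 inputs were not analysed here. Read quality was assessed by the authors (FastQC), adaptors were removed (Trim Galore), and alignment to mm9 used Bowtie2 2.4.2. Multiply mapped reads were dropped before peaks were called (MACS2). How the inputs entered the calling is not given in the sources used here. The deposited score of each peak has no stated unit and was read as above, since its lowest values match p of 1e-05 (50) and 0.001 (30). Read depth is not known.

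Genes came from GENCODE vM1 (22380 protein-coding genes), whose reference NCBIM37 is the mm9 assembly, and 0 peaks ran past a chromosome end. The sequence windows before the starts were also found in the RefSeq promoters of GRCm38.p6. Peaks were assigned by an overlap of at least 1 bp. A percentile is the share of values below, with tied values counted in part. The main coding transcript was used for exon numbers. The members and gene lists were chosen with earlier results of these data known. Gk was matched as Gyk. Named are the members, up to 5 listed genes per comparison with a peak in the same diet only as Ucp1, highest score first (Cox8b, Gyk, Slc25a20, Slc25a27, Slc25a42 and the neighbours Elmod2, Tbc1d9 and Dnajb13 were added after their values were seen), and the 5 genes nearest in pattern.

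No test was made, as 1 library per group allows none. Alternatives were scores of at least 50 or 80, equal numbers of peaks, promoters of 1 kb, 1 start per gene, peak midpoints, flanks of 5 kb and merging within 1 kb. In simulated data, 100% of 5000 genes given a promoter peak were recovered among 22380, and 0 calls differed from bedtools 2.31.1. Python 3.11.15, NumPy 2.4.6 and matplotlib 3.10.9 were used.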

Additional observations from a re-analysis of the deposited data

Results flagged for a closer look

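Peaks of H3K9me2 were found under opposite diets in the 2 tissues at Ucp2 and at Ucp3. At Ucp3 the gene body peak was in HFD only in BAT (score 120.52) and in SCD only in WAT (74.06). At Ucp2 the highest H3K9me2 peak was in HFD only in BAT (66.24) and in SCD only in WAT (36.54), both for the promoter with all starts and for the gene body. The Ucp3 peaks overlapped, whereas those of Ucp2 lay at different positions and the WAT peak was under a score of 50. In each tissue the diet with the peak was also the one with the longer H3K9me2 list. These differences between tissues were not tested.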

How the results depend on the processing

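No paired analysis was possible because each diet, tissue and mark had 1 library and the labels carry no replicate numbers. The number of the 3 genes with a promoter peak stayed within 1.5 times its value in 39 of 48 comparisons with an alternative, and the number of their peaks in 32 of 40. These counts do not measure stability, because many of the comparisons could not move. In 2 lists there was no peak to lose. The limit of 50 leaves lists that end at 50 or 50.01 unchanged, and equal numbers leave the shorter list of a pair unchanged. At a score of at least 80 the genes with a promoter peak were 0 in HFD and 0 in SCD BAT H3K9me2, 0 in SCD BAT H3K9me3, 0 in SCD WAT H3K9me2 and 1 in HFD WAT H3K9me3 (Ucp2), and the peaks were 1, 0, 0, 0 and 1 in the same lists. With equal numbers of peaks in both diets, HFD BAT H3K9me2 had 0 such genes and 1 peak, and SCD WAT H3K9me2 had 0 and 1. At a score of at least 50, SCD WAT H3K9me2 also had 0 such genes and 1 peak, that of Ucp3. With 1 start per gene, HFD BAT H3K9me2 kept 1 gene, Ucp1, and the highest Ucp2 score of SCD WAT H3K9me2 was 33.14. The Ucp1 promoter peak of BAT H3K9me3 was in HFD only under all 6 alternatives for the promoter. These were both score limits, equal numbers, 1 kb, 1 start and midpoints. Only the limit of 80 and the equal numbers, whose HFD cut was 101.41, could have removed this peak, which scored 129.42. The limit of 50 changes neither BAT H3K9me3 list. The changes of window could not alter the result. The peak covers the only Ucp1 start, and the nearest SCD peak lay 41.4 kb away. The single library per group, its unknown depth and the lower threshold of the SCD lists of WAT limit every difference between diets.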

Other observations

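Beyond the 15 kb upstream of Ucp1, the next peaks were again of H3K9me2 and again in HFD BAT and SCD WAT. They ended 18.8 kb upstream of the start in HFD BAT (score 59.68, 692 bp) and 18.7 kb upstream in SCD WAT (score 36.23, 574 bp) and lay over coding sequence near the end of Tbc1d9. The H3K9me2 peaks over coding exons of Ucp3 and Ucp2 were in these 2 lists too. Neither SCD BAT nor HFD WAT H3K9me2 had a peak there. These were the shorter lists, with 24887 and 21976 peaks against 43173 in HFD BAT and 40013 in SCD WAT. The SCD WAT peaks at Tbc1d9 and Ucp2 were under 50, the lowest score of the HFD WAT list. The HFD BAT peaks at Tbc1d9 and Ucp2 were under 70.62, the lowest score kept with equal numbers of peaks. The Ucp3 peaks lay above these limits.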
